A study of Mus musculus with 9 samples.

Results

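The nuclei described here are cycling endothelial and endocardial nuclei of the mouse ventricle, 403 of 26639 barcodes with at least 500 UMIs (unique molecular identifiers, 1 per captured RNA molecule) in 9 single-nucleus Drop-seq libraries. Of those barcodes, 4869 were poor in Malat1, a nuclear RNA, and so could not be members. They were chosen by measured counts. A nucleus had to hold at least 3 UMIs summed over 15 endothelial genes, at most 3 over 4 fibroblast genes (Col1a2, Col3a1, Pdgfra, Abca8a), and at least 2 over the cycling genes Mki67, Top2a, Ect2, Kif15, Knl1 and Esco2, with Malat1 at 1.5% of UMIs or more. Of the 15 endothelial genes, 9 mark mainly capillary endothelium (Flt1, Kdr, Btnl9, Meox2, Gpihbp1, Adgrl4, Egfl7, Cyyr1, Ushbp1) and 6 mark mainly endocardium (Nrg1, Npr3, Vwf, Chrm3, Tmem108, Plvap). The libraries fall into 3 groups of 3: KO P10 hearts, with both ERRα and ERRγ knocked out (ERRalphaKO/ERRgammaKO) and taken at postnatal days 9 to 10; control P10 hearts of the same age, which carry 1 functional copy of ERRα and intact ERRγ (ERRalphaHet/ERRgammaWT); and control P6 hearts of that control genotype at day 6. All mice were C57BL6/J. Since the controls are ERRalphaHet, every control also lacks 1 ERRα copy, and how the ERRγ knockout was driven is not given in the sources used here. Ventricles were used fresh or after freezing, which is not recorded per library, and nothing says that each library came from another animal, so p-values measure the spread between libraries.

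Endothelial cells line every cardiac vessel, and the endocardium is the specialised endothelium that lines the chambers. After birth the coronary capillary bed keeps growing with the muscle, through endothelial cells that re-enter the cell cycle under VEGF signals. Genes of the S phase copy DNA, while a later set, built around CDK1, the kinetochore and the cleavage furrow, carries the cell through mitosis; in mammals this late set is known to be switched on through CCAAT boxes and a short element called the CHR (cell cycle genes homology region). ERRα (gene Esrra) and ERRγ (Esrrg) are nuclear receptors that drive mitochondrial and fatty acid oxidation genes in the postnatal heart.

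The members came from every library: 20, 17 and 26 in the KO P10 libraries, 14, 60 and 55 in the control P10 libraries, and 69, 98 and 44 in the control P6 libraries, each in replicate order 1 to 3. Summed per library they held 17224 to 33856 UMIs in KO P10, 31000 to 109993 in control P10 and 105024 to 150805 in control P6 hearts, so the P10 sums, and the KO sums most, carry the larger counting error. Whole libraries held 2608067 to 5769630 UMIs. KO P10 replicate 2 shared 465 cell barcodes with KO P10 replicate 1, and these were left out of replicate 2. All 3 control P6 libraries were rich in the X-inactivation RNA Xist (220 to 431 UMIs in members), whereas the P10 groups were mixed: 70, 0 and 1 UMIs in KO P10 and 26, 0 and 0 in control P10 members. Sex was therefore uneven between control P10 and control P6 hearts, and its part in their differences was not tested. Control P10 replicate 1, with 14 members, was the only control P10 library rich in Xist, so sex and age cannot be told apart here.

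Most members lay near the lower limit for cycling UMIs: 140 had exactly 2, 76 had 3, 50 had 4, 40 had 5, 16 had 6 and 81 had 7 or more, with 32 as the highest. Just outside that limit lay 309 endothelial nuclei with 1 cycling UMI, and 1918 had none. Those with none are called non-cycling below. For endothelial UMIs, 67 members held exactly 3 and 121 held 10 or more, while 88 nuclei with 2 endothelial UMIs met every other criterion. A further 226 nuclei were left out only for fibroblast UMIs above the limit. Members were deeper than non-cycling endothelial nuclei, with a median of 1139 UMIs (502 to 19564) against 819.5, and at a common depth of 500 UMIs they showed a median of 417 genes against 403. Mitochondrial transcripts took a smaller median share of UMIs in members than in non-cycling nuclei of the same library in 8 of 9 libraries, at 6.46 to 15.8% against 9.60 to 17.8% in KO P10, 7.63 to 13.7% against 9.53 to 30.9% in control P10 and 0.604 to 2.36% against 0.857 to 2.20% in control P6, where replicate 1 was the exception.

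Outside the selection, 12 further endothelial markers were also found in members (Pecam1, Cdh5, Tek, Tie1, Ptprb, Emcn, Ptprm, Mmrn2, Erg, Robo4, Esam and Cldn5). They took 0.319 to 0.627% of member UMIs in KO P10, 0.303 to 0.475% in control P10 and 0.290 to 0.549% in control P6 libraries. In nuclei chosen as cycling cardiomyocytes by the same cycling criterion, the same genes took 0.0617 to 0.118%, 0.0944 to 0.146% and 0.0333 to 0.0575% in those groups, below the members in every library. At least 1 UMI of the 12 genes was found in 390 of 403 members. Pecam1, the junctional adhesion molecule of endothelium, averaged 564 CPM in members against 49.4 CPM in cycling cardiomyocyte nuclei, where CPM are UMIs scaled to a sum of 1000000 over the pooled nuclei of a class in a library, averaged over 9 libraries.

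RNA of other cells was also present, cardiomyocyte RNA most of all. The 10 cardiomyocyte markers (Ttn, Ryr2, Myh6, Tnnt2, Actn2, Ldb3, Myom1, Mlip, Tnni3, Myl2) took 1.97 to 4.84% of member UMIs in KO P10, 3.09 to 4.29% in control P10 and 1.49 to 2.73% in control P6 libraries. Non-cycling endothelial nuclei held 2.94 to 4.18%, 2.72 to 3.54% and 1.54 to 2.09% in the same groups. In 96 members these markers reached 3% of UMIs, and 289 members held more cardiomyocyte marker UMIs than UMIs of the 15 endothelial genes, which are far less abundant. All 12 fibroblast markers were seen, at 0.252 to 0.360%, 0.210 to 0.266% and 0.111 to 0.130%, and all 10 pericyte and smooth muscle markers at 0.0290 to 0.257%, 0.0839 to 0.128% and 0.0857 to 0.231% in KO P10, control P10 and control P6 members. The 10 macrophage and lymphocyte markers summed to 82 UMIs in all members, with Cd163 at 0, the 7 lymphatic endothelial markers to 136, with Pdpn at 0, the 7 Schwann and neuronal markers to 177, with Sox10 and Kcna1 at 0, and the 8 epicardial markers to 84. A nucleus and free RNA captured in its droplet cannot be separated in these tables.

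Among the selecting genes, Mki67, which coats mitotic chromosomes, was seen in 312 members (77.4%) and Top2a, the topoisomerase that untangles replicated DNA, in 257 (63.8%). Knl1, a kinetochore scaffold, was seen in 149 (37.0%), Kif15, a spindle motor, in 127 (31.5%), Esco2, a cohesin acetyltransferase of S phase, in 76 and Ect2, which starts the cleavage furrow, in 73. On the endothelial side Egfl7 was seen in 254 members (63.0%), the VEGF receptor Flt1 in 191 (47.4%) and the VEGF receptor Kdr in 137 (34.0%). The endocardial genes were rarer: Tmem108 in 84 members (20.8%), the growth factor Nrg1 in 76 (18.9%) and the caveolar diaphragm protein Plvap in 36 (8.93%). These counts describe the choice and test nothing.

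Promoters of 4 cell cycle genes are shown because Mki67 and Top2a supplied most of the cycling UMIs, and Cenpe and Cenpf were, of the 25 genes that led the members outside the selection, those with the most UMIs. Each runs from 250 bases before to 50 bases after the transcription start in RefSeq for GRCm38.p6, 5′ to 3′ on the gene's strand. Capitals mark CCAAT or its reverse complement ATTGG, and the CHR as TTTGAA, its reverse complement TTCAAA, or TTCGAA, which is its own reverse complement. The CCAAT and CHR words can overlap. Mki67 lies on the minus strand at chr7:135716330-135716629, Top2a on the minus strand at chr11:99024140-99024439, Cenpe on the plus strand at chr3:135212313-135212612 and Cenpf on the minus strand at chr1:189688037-189688336.
Mki67: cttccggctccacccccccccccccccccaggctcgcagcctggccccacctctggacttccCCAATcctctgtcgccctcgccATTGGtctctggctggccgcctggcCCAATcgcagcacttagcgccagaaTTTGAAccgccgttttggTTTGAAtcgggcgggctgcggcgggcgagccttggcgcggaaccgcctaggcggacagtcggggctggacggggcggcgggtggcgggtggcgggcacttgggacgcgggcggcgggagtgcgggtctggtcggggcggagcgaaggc
Top2a: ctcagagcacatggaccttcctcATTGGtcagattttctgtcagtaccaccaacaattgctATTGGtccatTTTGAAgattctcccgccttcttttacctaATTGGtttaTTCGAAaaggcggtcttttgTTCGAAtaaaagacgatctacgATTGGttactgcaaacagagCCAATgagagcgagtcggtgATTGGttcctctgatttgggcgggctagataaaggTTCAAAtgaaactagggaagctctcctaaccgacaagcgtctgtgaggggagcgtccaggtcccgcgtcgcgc
Cenpe: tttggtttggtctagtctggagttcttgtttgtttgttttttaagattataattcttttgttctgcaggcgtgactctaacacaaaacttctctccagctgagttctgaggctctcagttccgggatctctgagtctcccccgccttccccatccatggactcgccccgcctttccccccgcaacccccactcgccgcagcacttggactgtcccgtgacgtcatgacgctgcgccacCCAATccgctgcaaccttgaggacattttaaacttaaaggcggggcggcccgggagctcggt
Cenpf: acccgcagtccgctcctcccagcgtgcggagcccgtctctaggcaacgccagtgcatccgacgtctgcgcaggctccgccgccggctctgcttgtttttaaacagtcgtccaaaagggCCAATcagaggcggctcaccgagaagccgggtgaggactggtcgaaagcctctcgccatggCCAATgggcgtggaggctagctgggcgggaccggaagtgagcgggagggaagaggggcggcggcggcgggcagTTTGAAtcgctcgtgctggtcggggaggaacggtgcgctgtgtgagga

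The Mki67 window held 3 CCAAT and 2 CHR matches and the Top2a window 6 and 4. Cenpf held 2 CCAAT matches and 1 CHR match, while Cenpe held 1 CCAAT match, 12 bases before the start, and none of the CHR words. Of the 25 leading genes, 20 were in the promoter table, with 23 promoters. Among those 23, CCAAT was found in 18 (78.3%), the CHR in 17 (73.9%) and both in 13 (56.5%). Over all 32851 promoters of the same length the shares were 37.4%, 19.2% and 7.53%. Of the cycling genes that made the selection, 5 were in the table with 6 promoters, of which 4 held CCAAT (66.7%) and 6 the CHR (100%). The E2F words GGCGGGAA and TTTGGCGC, on either strand, were in 1 of the 23 promoters (4.35%), against 2.68% of all promoters. These are matches of letters in a window and say nothing about binding.

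The genes that led the members over non-cycling endothelial nuclei belonged mostly to the late cell cycle: of the 25 highest by the rule below, 19 were in the list of mitosis and cytokinesis genes, 1 in that of DNA repair and 0 in that of S phase. In all comparisons of members with non-cycling nuclei, levels are CPM averaged over 9 libraries, and the ratios are of these averages. Because cycling genes chose the nuclei, they are a description without a test. The selecting genes were mainly of the late cycle, so the lead of mitosis over S phase genes is largely set by the choice. The 25 are those of highest ratio, outside the selection, with 50 UMIs or more in members and a higher level in all 9 libraries. Of 3234 genes with 50 or more UMIs in members, 76 were higher in members in all 9 libraries and 30 lower in all 9, with a median ratio of 1.05.

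Cenpf, a kinetochore protein of G2 and mitosis, had 437 UMIs in members and 142 in non-cycling nuclei, and was seen in 182 members (45.2%). In CPM it stood at 226, 1684 and 679 in KO P10 members (non-cycling nuclei: 50.1, 10.6 and 110.6), at 258, 536 and 620 in control P10 members (30.2, 117 and 56.6) and at 714, 782 and 476 in control P6 members (89.0, 143 and 59.4). Members exceeded non-cycling nuclei in each of the 9 libraries, and the ratio of averages was 8.96. Cenpe, the motor that carries chromosomes to the spindle equator, averaged 577 in members and 62.2 in non-cycling nuclei, a ratio of 9.28. Prc1, which bundles the central spindle, averaged 325 in members and 34.3 in non-cycling nuclei, and was seen in 136 members. Lockd, a long non-coding RNA gene next to Cdkn1b, averaged 439 in members and 52.6 in non-cycling nuclei, a ratio of 8.35.

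The highest ratios belonged to scarcer genes. Cdc25c, the phosphatase that activates CDK1 at mitotic entry, had 52 UMIs in members against 4 in non-cycling nuclei, a ratio of 33.0. Fam64a followed with 85 UMIs against 9 (ratio 23.4), Mastl, the Greatwall kinase that holds mitosis, with 57 against 7 (18.2), and the kinesin Kif18b with 56 against 10 (17.3). Aspm of the spindle pole (13.2), the microtubule proteins Ckap2 (12.1) and Nusap1 (11.5), and Neil3, a glycosylase that acts on replicating DNA (10.8), had 107, 225, 171 and 150 UMIs in members. Kif23 and Racgap1, the 2 parts of the centralspindlin complex that guides cytokinesis, had ratios of 9.88 and 8.5, and the kinetochore proteins Ndc80 and Spc25 had ratios of 8.83 and 8.74. Among the other genes of the 25 were Cdca2, Tpx2, Cep55, Sgol2a, Spag5, Cdca8, Ckap2l and C330027C09Rik, with ratios of 8.16 to 14.5. Several of these were as abundant in cycling cardiomyocyte nuclei: Cenpf averaged 657 there, Cenpe 580 and Prc1 372.

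**Figure D1:**
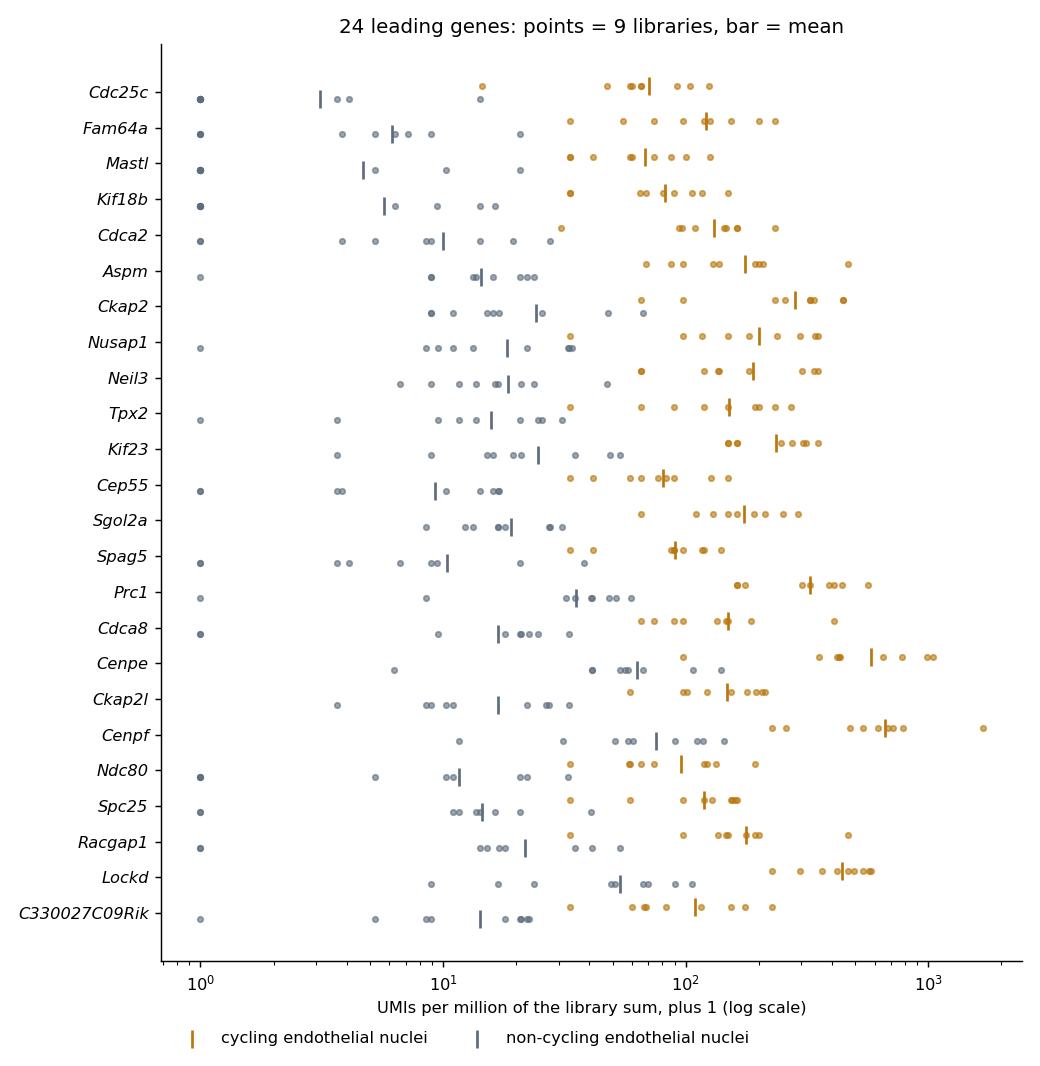
Levels of 24 of the 25 leading genes in members and non-cycling endothelial nuclei, in CPM plus 1 on a log axis, with 1 point per library and a bar at the mean of 9 libraries. For Cenpf, Cenpe and Prc1, members averaged 664, 577 and 325 against 74.1, 62.2 and 34.3 in non-cycling nuclei.

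By list, mitosis stood furthest from the rest, a place largely set by the mainly late-cycle selecting genes. Over the 11802 genes with at least 20 UMIs in both kinds of nuclei together, 48.3% had a ratio above 1, 2.33% were higher in members in 8 or more libraries, 5.12% lower in 8 or more, and the median ratio was 0.987. All 73 mitosis and cytokinesis genes with that many UMIs had a ratio above 1, and 56 were higher in 8 or more libraries, with a median ratio of 8.0. Summed per library, the list was 3.43 to 9.30 times as high in members. All 43 DNA replication and S phase genes also had a ratio above 1, but 5 were higher in 8 or more libraries and the median was 2.27. Clspn, which relays replication stress, had a ratio of 4.47, the nucleotide enzyme Tyms 4.25 and the chromatin ATPase Atad2 3.95, whereas the helicase subunit Mcm3 stood at 1.03. Of 25 repair genes 24 had a ratio above 1, among them Fancd2 of the Fanconi pathway at 5.82 and the tumour suppressor Brca1 at 4.80.

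Genes that act before S phase were divided. Of 25 G1/S genes 17 had a ratio above 1, with a median of 1.32. The late regulators E2f8, Foxm1 and E2f7 had ratios of 11, 8.81 and 4.44 on 18, 35 and 107 member UMIs. The G1 cyclins Ccnd2 and Ccnd3 and their kinase Cdk4 had ratios of 0.846, 0.772 and 0.793. Among 24 inhibitor and quiescence genes the median was 1.09: the phosphatase Cdkn3 stood at 9.13 and the CDK4/6 inhibitor Cdkn2c at 4.70, while Cdkn1c, the inhibitor p57, was lower in members in 8 libraries, at 59.7 against 131.6 (ratio 0.454).

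**Figure D2:**
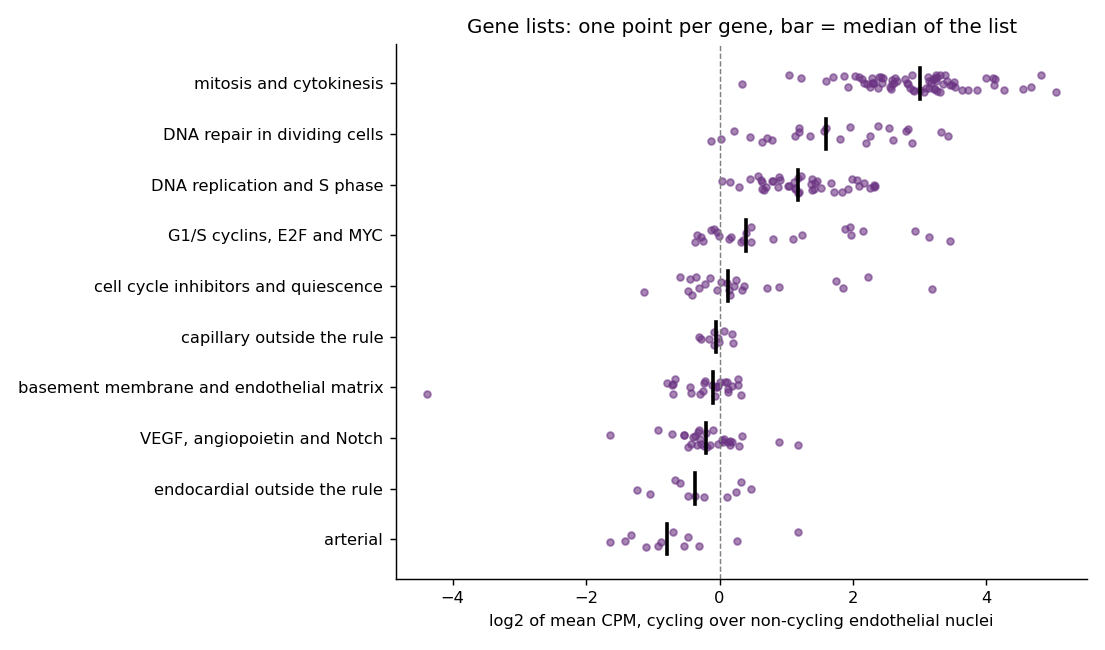
Log2 ratio of members to non-cycling endothelial nuclei, 1 point per gene and a bar at the median of each list; the rule in the labels is the selection of nuclei. Mitosis (median ratio 8.0), repair (3.01) and S phase (2.27) lie above the endothelial lists shown, whose medians run from 0.581 for arterial genes to 0.963 for capillary genes outside the selection.

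Endothelial specialisation genes were mostly level or lower in members. Of 12 arterial genes 2 had a ratio above 1 and the median was 0.581; the kinase Bmx stood at 72.8 in members against 194 in non-cycling nuclei, and the connexin Gja4 at 45.1 against 113. Of 31 VEGF, angiopoietin and Notch genes 11 had a ratio above 1. Eng, a TGF-β co-receptor, was lower in members in all 9 libraries, at 337 against 551, and Apln, a peptide of sprouting tip cells, had a ratio of 1.85 and was higher in 6. In the basement membrane list 7 of 26 genes were lower in 8 or more libraries, among them Itgb4 with 1 UMI in members and 38 in non-cycling nuclei, Lama5 (ratio 0.582) and Col18a1 (0.608), while Col4a1, an abundant collagen of that membrane, stood at 970 against 849. The 10 capillary genes outside the selection had a median ratio of 0.963, with the fatty acid carrier Fabp4 at 1.13 and the fatty acid transporter Cd36 at 1.04.

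Among other genes with low ratios was Inhba, an activin subunit, with 5 UMIs in members and 123 in non-cycling nuclei. The peptidase Dpp4 had 11 and 193 UMIs and the ephrin receptor Epha7 33 and 503. All 3 were lower in members in each of the 9 libraries. Of 41 respiratory chain genes 36 had a ratio above 1, against 48.3% of all genes with at least 20 UMIs. Their median ratio was 1.15, against 0.987, and 1 of them was higher in 8 or more libraries. For the cardiomyocyte markers the median was 1.10.

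Most members of the control libraries leaned to the capillary side, while those of KO P10 were divided. A nucleus was called endocardial-leaning if its UMIs over the 6 endocardial genes of the selection exceeded those over the 9 capillary genes; the selection used their sum, not their ratio. Of the members 321 leaned capillary, 72 endocardial and 10 held equal UMIs; in the KO P10 libraries 13, 5 and 11 leaned capillary and 5, 12 and 14 endocardial. Endocardial-leaning nuclei made up 25, 70.6 and 53.8% of members in the KO P10 libraries, 35.7, 15.0 and 12.7% in control P10 and 1.45, 16.3 and 6.82% in control P6. In non-cycling nuclei they made up 60.4, 65.5 and 64.7% in KO P10, 48.0, 36.1 and 20.4% in control P10 and 9.65, 32.1 and 28.8% in control P6. The share was lower in members in 8 of 9 libraries, KO P10 replicate 2 being the exception, with means of 26.4% against 40.6% (difference -14.2 percentage points, exact permutation test over sign flips, two-sided, p = 0.00781, n = 9). Put the other way, the cycling share of endocardial-leaning nuclei was below that of capillary-leaning nuclei by 10.6 points on average (difference -10.6, exact sign flips, p = 0.0078, n = 9). The second value restates the first from the same calls and adds no support to it. Both rest on genes that also admitted the nuclei, so they describe the members and are no independent test of identity. Where nuclei with more cardiomyocyte than endothelial UMIs were left out, the difference in endocardial share was -9.55 points (exact sign flips, p = 0.125, n = 9).

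**Figure D3:**
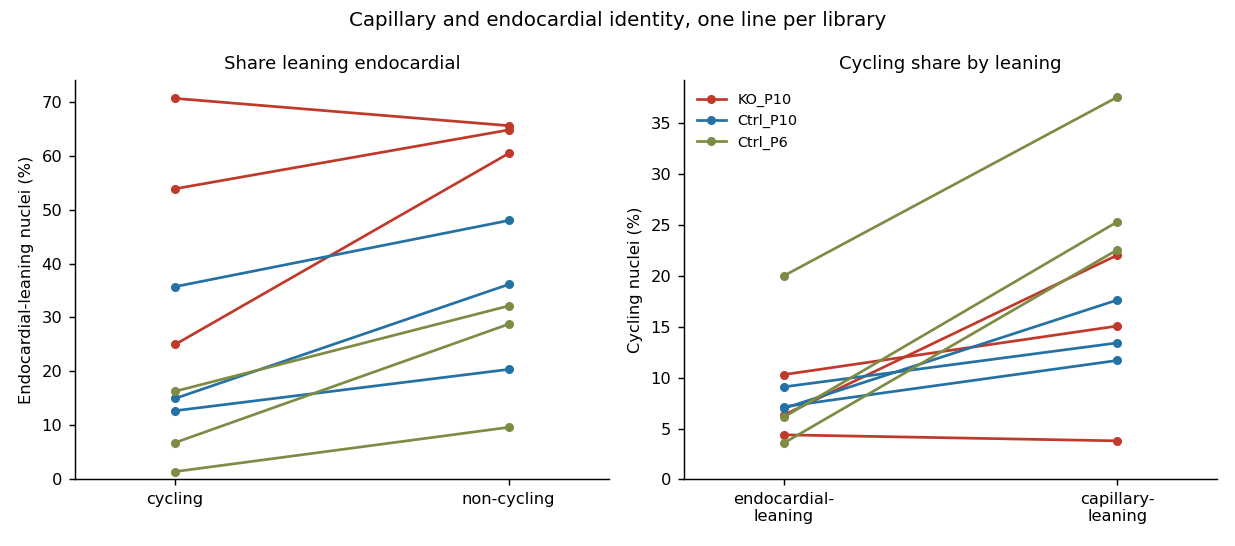
Left, share of endocardial-leaning nuclei (percent) among cycling and non-cycling endothelial nuclei; right, cycling share (percent) of endocardial-leaning and capillary-leaning nuclei, with 1 line per library coloured by group. On the left the cycling point lies below the non-cycling point in every library except KO P10 replicate 2 (70.6% against 65.5%).

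Of 11 endocardial genes outside the selection 6 were lower in members in 8 or more libraries and 1 was higher. The cadherin Cdh11 stood at 242 CPM in members against 571 in non-cycling nuclei, the matrix protein Smoc1 at 70.2 against 145 and the sialomucin Emcn at 507 against 805, while Tmem100 was higher in members in 8 libraries, at 114 against 82.0. The 6 endocardial genes of the selection also make the leaning call, so their levels restate it: all were lower in members in 8 or more libraries, with a median ratio of 0.53, and Nrg1 averaged 604 in members against 1207 in non-cycling nuclei and the muscarinic receptor Chrm3 150 against 534. For the capillary genes Egfl7 and Flt1 the averages were 791 against 761 and 496 against 739.

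Cycling nuclei were a smaller share of the endothelium in control P10 than in control P6 libraries. The share of endothelial nuclei that were members was 13.7, 4.05 and 12.0% in KO P10 libraries (20 of 146, 17 of 420 and 26 of 217), 9.27, 14.3 and 12.8% in control P10 (14 of 151, 60 of 419 and 55 of 430) and 21.0, 32.6 and 20.3% in control P6 (69 of 329, 98 of 301 and 44 of 217). Exact 95% binomial intervals, which cover counting error only, ran from 2.38 to 6.40% for KO P10 replicate 2 and from 27.3 to 38.2% for control P6 replicate 2, the lowest and highest shares. Every control P10 share lay below every control P6 share, while KO P10 and control P10 overlapped. Control P10 averaged 12.1% and control P6 24.6% (difference -12.5 points; exact permutation test, two-sided, p = 0.10, the smallest that 3 against 3 allows). KO P10 averaged 9.91% and control P10 12.1% (difference -2.22 points, exact permutation p = 0.60). Without KO P10 replicate 2 the difference was 0.713 points, so its sign rests on that library. Where nuclei with more cardiomyocyte than endothelial UMIs were left out, KO P10 averaged 5.56% and control P10 10.7% (difference -5.09 points, exact permutation p = 0.10). In that setting control P10 differed from control P6 by -12.8 points (exact permutation p = 0.20).

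Depth and free RNA touch these shares. With every nucleus thinned to 500 UMIs the shares were 4.65, 2.25 and 7.51% in KO P10, 3.81, 5.67 and 8.30% in control P10 and 12.3, 16.2 and 9.66% in control P6, with a difference of -6.77 points between control P10 and control P6 (exact permutation p = 0.10). No cell type in these hearts can be taken to lack cycling genes, so the share was set beside 4869 barcodes with 500 UMIs or more but Malat1 under 1.5%, which may hold little nuclear RNA. At full depth 21.4, 1.29 and 8.35% of these had 2 or more cycling UMIs in KO P10, 16.4, 14.5 and 12.6% in control P10 and 19.8, 25.2 and 19.2% in control P6. The endothelial share was above theirs in 6 of 9 libraries at full depth and in all 9 after thinning, by 0.34 to 11.8 points. Median depths were 789.5 to 1162 UMIs in the Malat1-poor barcodes of the libraries. The part of free RNA in single member calls was not tested.

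On average over the libraries, more endothelial than fibroblast or cardiomyocyte nuclei were cycling. The same cycling criterion held for 14, 0.873 and 10.6% of fibroblast nuclei in KO P10, 5.92, 11.1 and 8.81% in control P10 and 7.08, 21.8 and 17.4% in control P6. For cardiomyocyte nuclei it held for 8.69, 0.407 and 8.85% in KO P10, 5.08, 9.04 and 6.37% in control P10 and 7.08, 15.5 and 13.5% in control P6. The endothelial share exceeded the fibroblast share by 4.70 points on average (exact sign flips over 9 libraries, p = 0.00781) and the cardiomyocyte share by 7.27 points (exact p = 0.00391). After thinning the differences were 2.18 points (exact p = 0.0430) and 2.85 points (exact p = 0.0156). KO P10 replicate 1 went the other way: its endothelial share was 13.7% against 14% in fibroblasts, and after thinning 4.65% against 6.56% in fibroblasts and 5.70% in cardiomyocytes. When endothelial nuclei with more cardiomyocyte than endothelial UMIs were left out they were 2.36 points (exact p = 0.289) and 4.92 points (exact p = 0.0586). KO P10 replicate 2 was low in all 3 classes, with 17 of 420 endothelial, 5 of 573 fibroblast and 6 of 1474 cardiomyocyte nuclei cycling. Control P10 differed from control P6 in the gap between endothelial and other nuclei by -5.68 points for fibroblasts (exact permutation p = 0.40) and -7.28 points for cardiomyocytes (exact permutation p = 0.10, the smallest possible).

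**Figure D4:**
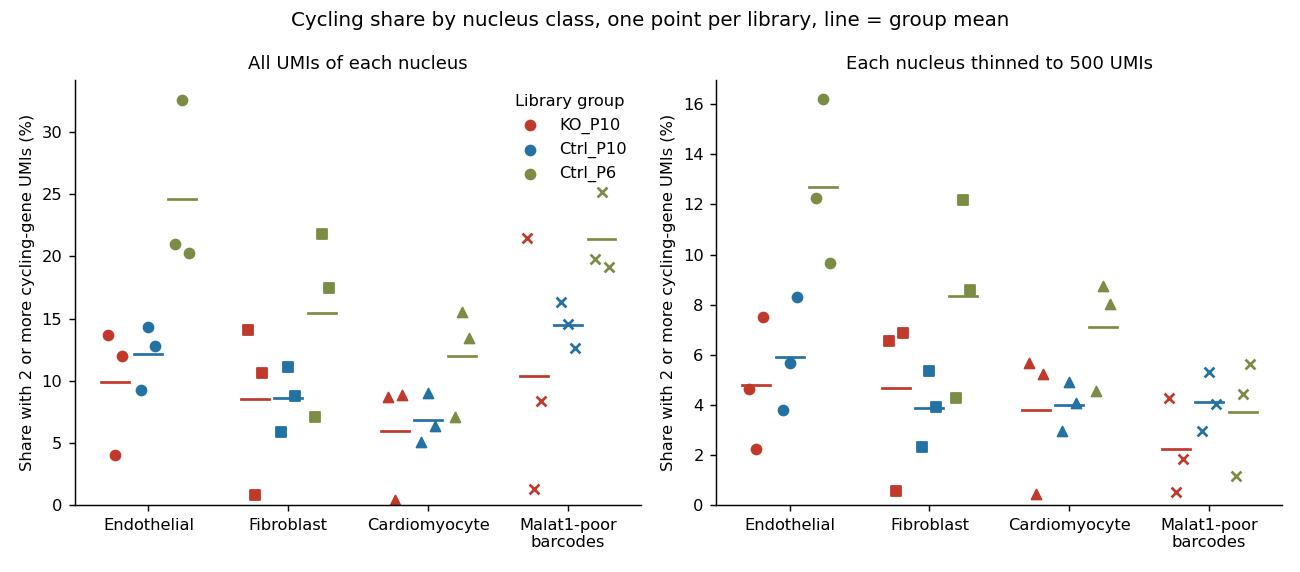
Share with 2 or more cycling UMIs (percent) among endothelial, fibroblast and cardiomyocyte nuclei and Malat1-poor barcodes, at full depth (left) and thinned to 500 UMIs (right), with 1 point per library and a line at the mean of KO P10, control P10 and control P6. At full depth control P6 endothelium averages 24.6%, control P10 12.1% and KO P10 9.91%, where replicate 2 lies at 4.05%.

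By side of the endothelium, the cycling share of capillary-leaning nuclei was 22.0, 3.79 and 15.1% in KO P10, 11.7, 17.6 and 13.4% in control P10 and 22.6, 37.6 and 25.3% in control P6. Control P10 lay below control P6 in every pairing of libraries (difference -14.2 points, exact permutation p = 0.10, the smallest possible). For endocardial-leaning nuclei the shares were 6.33, 4.38 and 10.3% in KO P10, 7.14, 6.98 and 9.09% in control P10 and 3.57, 20 and 6.12% in control P6, where the groups overlapped (difference between control P10 and control P6 -2.16 points, exact permutation p = 1.0). KO P10 differed from control P10 by -0.61 points in capillary-leaning (exact permutation p = 1.0) and -0.74 points in endocardial-leaning nuclei (exact permutation p = 0.80). Whether the age difference was unlike on the capillary and endocardial sides was not tested.

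Members were then divided by phase. The selection used mainly late-cycle genes, with Esco2 the one that acts in S phase, so the level of an S phase share is largely set by the choice and groups alone are compared. A member was S-leaning if its UMIs over the S phase list exceeded those over the mitosis list, neither of which holds a selecting gene. Members with a UMI of either list numbered 20, 17 and 25 in KO P10, 14, 59 and 53 in control P10 and 69, 98 and 44 in control P6 libraries. S-leaning members made up 5.0, 23.5 and 8.0% in KO P10, 0.0, 8.47 and 13.2% in control P10 and 10.1, 11.2 and 4.55% in control P6 libraries. All groups overlapped. KO P10 differed from control P10 by 4.95 points (exact permutation p = 0.70) and control P10 from control P6 by -1.41 points (exact permutation p = 0.80). The 0.0% of control P10 replicate 1 rests on 14 members. The S phase share depends on how many genes each list holds (46 against 74), so its level is not a length of phase.

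Of the 2 targeted genes, Esrra was scarce in members. It had 0, 0 and 1 UMIs in KO P10 members, 4, 9 and 1 in control P10 and 4, 6 and 2 in control P6. Esrrg had 8, 1 and 5 UMIs in KO P10, 45, 65 and 51 in control P10 and 14, 27 and 14 in control P6. On edgeR's TMM-normalised CPM scale, which corrects library sums of members for composition, Esrrg stood at 250, 53.9 and 148 in KO P10 against 1547, 578 and 665 in control P10. Every KO P10 library was below every control P10 library, though KO P10 overlapped control P6, where Esrrg stood at 101, 184 and 146, and the difference from control P10 missed the threshold (log2 fold change -2.46 ± 0.57 SE, edgeR adjusted p = 0.0965). The 3′ tags of this method may lie outside the deleted part of a gene, so residual UMIs do not test the deletion. In plain CPM Esrrg averaged 155 in KO P10 and 910 in control P10 members, and 737 in KO P10 and 1404 in control P10 cardiomyocyte nuclei.

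Between KO P10 and control P10 members, 3 genes passed the test, 0.146% of the 2050 tested: 2 higher (0.0976%) and 1 lower (0.0488%), by edgeR's quasi-likelihood test at an adjusted p under 0.05. Nppa, the atrial natriuretic peptide gene of stressed and fetal ventricular muscle, had 4907, 10456 and 11827 TMM-normalised CPM in KO P10 and 103, 347 and 65.2 in control P10. It rose in KO P10 (log2 5.60 ± 0.79 SE, edgeR adjusted p = 0.00142, n = 3 each). Acta1, the skeletal α-actin gene, also of fetal heart muscle, had 281, 755 and 917 in KO P10 and 0.0, 71.2 and 91.3 in control P10, and rose (log2 3.24 ± 0.58, edgeR adjusted p = 0.0178). Kcnn2, a calcium-activated potassium channel gene, had 31.3, 53.9 and 59.1 in KO P10 and 1203, 311 and 600 in control P10, on 4 UMIs against 116, and fell (log2 -3.75 ± 0.73, edgeR adjusted p = 0.0323). For all 3 genes the KO P10 and control P10 libraries did not overlap, as held for 8.88% of tested genes in the higher and 9.66% in the lower direction. Leaving out 1 library at a time, Nppa was called in 6 of 6 fits; Acta1 was not called without control P10 replicate 2 (edgeR adjusted p = 0.0648) or KO P10 replicate 3 (0.182), nor Kcnn2 without KO P10 replicate 3 (0.142). The count of calls was 23 without KO P10 replicate 1 and 1 without KO P10 replicate 3. It was 21 by DESeq2, among 699 genes given an adjusted p, and 284 of the 2050 genes had an unadjusted p under 0.05 in edgeR.

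All 3 are genes of heart muscle, and their levels in other nuclei of the same libraries moved with them. In plain CPM, Nppa averaged 9381 ± 3749 in KO P10 and 173 ± 158 in control P10 members (SD, n = 3 each), 10179 and 193 in KO P10 and control P10 non-cycling endothelial nuclei, and 8721 and 234 in nuclei of the cardiomyocyte gate. Acta1 averaged 747 in KO P10 and 64.3 in control P10 cardiomyocyte nuclei, and Kcnn2 458 and 1109. In a fit of non-cycling endothelial nuclei the log2 differences were 5.72 for Nppa, 3.99 for Acta1 and -1.58 for Kcnn2, each with an edgeR adjusted p under the threshold. Nppa was also called among members whose cardiomyocyte markers stayed under 3% of UMIs (log2 5.28, edgeR adjusted p = 0.000415). Acta1 and Kcnn2 could not be tested in that setting. The markers still took 1.70 to 1.93% of UMIs in the KO P10 members kept and 1.26 to 2.09% in those of control P10. At least 1 Nppa UMI was in 59 of 63 KO P10 and 27 of 129 control P10 members. How much of this came from cardiomyocyte RNA in the droplets was not tested.

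No gene of any list passed in edgeR between KO P10 and control P10 members. Of the 238 list genes tested, 38 had an unadjusted p under 0.05 in edgeR, against 284 of all 2050. DESeq2 gave an adjusted p for 132 of the 238 and called 9, among them all 4 hemoglobin genes. Over all genes it gave one for 699 and called 21. The 32 mitosis genes tested had a median log2 difference of 0.36, the 38 respiratory chain genes -0.034, the 23 genes of the citric acid cycle and fatty acid oxidation -0.55 and the 18 basement membrane genes 0.22, with a median of -0.0077 over all 2050. Further from that median lay the 4 hemoglobin genes at 2.26 (all 4 at an unadjusted p under 0.05 in edgeR), the 7 endocardial genes outside the selection at 1.35 (4 of 7), the 15 ribosomal protein genes at 1.29 (8 of 15) and the 3 pericyte and smooth muscle genes at -0.88 (2 of 3). The endocardial gene Nrg1 had 406, 2749 and 1183 TMM-normalised CPM in KO P10 and 103, 205 and 144 in control P10 members, without overlap (log2 3.12, edgeR adjusted p = 0.0755). With members at 3% or more of cardiomyocyte markers left out it passed the threshold (log2 3.01, edgeR adjusted p = 0.0279). Nrg1 is a gene of the selection and could admit a nucleus, so its values are a description. In the same setting Hba-a1 was called (log2 3.15, edgeR adjusted p = 0.0103). Endocardial-leaning nuclei made up 49.8 ± 23.1% of KO P10 and 21.2 ± 12.7% of control P10 members (SD, n = 3 each; exact permutation p = 0.20), and their part in the Nrg1 difference was not tested. The smallest further p-values were those of Alpk3, a kinase of heart muscle, at log2 -3.09 (edgeR adjusted p = 0.052), Gm17428 at -4.57 (0.052) and the secreted glycoprotein Fstl1 at 2.17 (0.102). Hemoglobin genes took 0.242 to 1.98% of UMIs in KO P10 and 0.0613 to 0.239% in control P10 members, and the 18 ribosomal protein genes 0.629 to 0.758% and 0.107 to 0.381%; the part of red cell RNA or RNA quality in the differences was not tested. Hba-a1 and Hba-a2 had log2 differences of 2.36 and 1.94, each at 0.125, and Rbfox1 and Cacna1a -2.32 and -3.48, also at 0.125.

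**Figure D5:**
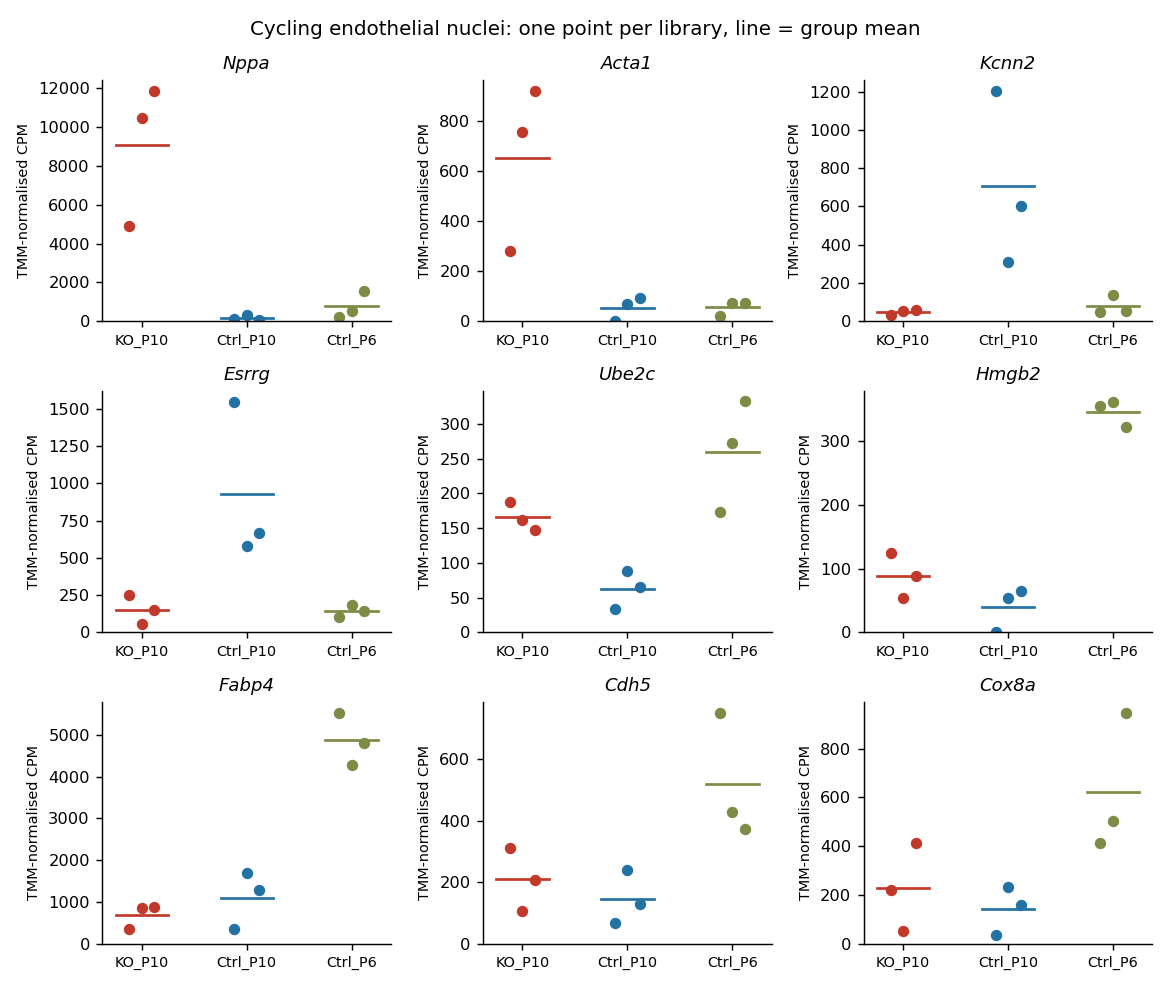
TMM-normalised CPM of 9 genes in members on linear axes, 1 point per library and a line at the group mean, with KO P10, control P10 and control P6 from left to right. Nppa lies at 4907 to 11827 in KO P10 against 65.2 to 347 in control P10, and Fabp4 at 344 to 1681 in control P10 against 4272 to 5529 in control P6.

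Control P10 members differed from control P6 members at many genes. The P10 libraries here are those already set against KO P10, so the 2 comparisons share them. Of 2050 genes 17.6% were called, 186 higher at P10 (9.07%) and 175 lower (8.54%), with a median log2 difference of -0.055 over all genes. Without control P6 replicate 1, 2 or 3 the calls numbered 207, 198 and 181, while 193 were called without control P10 replicate 1 and 162 without control P10 replicate 3. The largest rises included ion channel genes of heart muscle. Cacna1c, the L-type calcium channel, had 9005, 2722 and 2635 TMM-normalised CPM in control P10 and 289, 361 and 260 in control P6 members and rose (log2 3.96 ± 0.65 SE, edgeR adjusted p = 0.0027). Kcnd2, a potassium channel gene, had 1993, 703 and 1370 in control P10 and 109, 109 and 20.8 in control P6 and rose (log2 3.98 ± 0.74, edgeR adjusted p = 0.0048). The muscarinic receptor Chrm2 (log2 3.67), Fgf14 (3.36) and Fgf13 (3.33), which bind sodium channels, Pdzrn4 (3.35), Mylk4 (3.29), the splicing factor Rbfox1 (3.25), Pcdh7 (3.06), the lipid receptor Ppara (2.99), Kcnn2 (2.98) and Gm12381 (5.29) also rose, each with groups that did not overlap, as held for 20.2% of tested genes in the higher and 20.9% in the lower direction. Mylk4 was not called without control P6 replicate 1 (edgeR adjusted p = 0.0661) or 2 (0.0702), and without control P10 replicate 1 the log2 difference of Fgf14 was 1.90.

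Kcnd2 and Cacna1c were also abundant in cardiomyocytes: among cycling cardiomyocyte nuclei Kcnd2 averaged 2269 plain CPM at control P10 and 376 at control P6, and Cacna1c 5874 and 1866. Of the 186 higher genes 32 (17.2%) stood over 1.5 times as high in control P10 cycling cardiomyocyte nuclei as in members, against 10 of the 175 lower genes (5.71%) and 180 of all 2050 (8.78%). Among the cardiomyocyte markers themselves Ttn (log2 1.77), Ryr2 (2.78) and Mlip (2.69) rose in control P10 members, 3 of 10 tested, against 9.07% higher among all genes tested. The summed level of the 10 markers was 3.09 to 4.29% against 1.49 to 2.73% in control P10 and control P6. With members at 3% or more of cardiomyocyte markers left out, 82 of the 186 higher genes could be tested. All kept their direction and 34 were called. Of the 175 lower genes 73 could be tested, all kept their direction and 50 were called. Since these nuclei are part of the same members, the kept direction is not a separate check. The cardiomyocyte markers still took 1.26 to 2.09% of UMIs in control P10 and 0.908 to 1.19% in control P6 members kept. Ttn (log2 1.52, edgeR adjusted p = 0.0176) and Ryr2 (log2 1.83, edgeR adjusted p = 0.0114) were still called higher. The part of cardiomyocyte RNA in these differences was not tested.

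The largest falls included ribosomal protein genes. Hmgb2, a chromatin protein of dividing cells, had 0.0, 53.4 and 65.2 TMM-normalised CPM in control P10 and 355, 361 and 322 in control P6 members and fell (log2 -2.78 ± 0.47, edgeR adjusted p = 0.0027). Tmsb10, which binds actin monomers, had 0.0, 213 and 52.2 in control P10 and 738, 816 and 873 in control P6 and fell (log2 -2.84 ± 0.63, edgeR adjusted p = 0.0067). Ubb (-3.30), Ptma (-2.73), Rpl36 (-3.93), Rpl29, Rps18 (-2.73), Gm10076, Gm9794, Gm12338 and Rps24-ps3 fell too, the last not called without control P10 replicate 3 (edgeR adjusted p = 0.0509). Ribosomal protein genes share reads with many processed copies, so single ribosomal and unnamed transcripts are uncertain. Of 15 ribosomal protein genes tested 10 fell, against 8.54% lower among all genes tested. Their list took 0.107 to 0.381% of control P10 and 0.682 to 0.907% of control P6 member UMIs. KO P10 members, of the same age as control P10, held 0.629 to 0.758%. The list was also lower at control P10 than control P6 in non-cycling endothelial nuclei (0.184 to 0.433% against 0.66 to 0.862%). In cycling cardiomyocyte nuclei it took 0.147 to 0.211% against 0.285 to 0.456%. The part of RNA quality or other traits of whole libraries was not tested.

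Within the cell cycle lists, 7 of 32 mitosis genes tested fell at P10 and none rose, against 8.54% lower among all genes tested. Members held a median of 2, 3 and 2 cycling UMIs in the control P10 libraries and 4, 4 and 4 in control P6, and the part of this in the counts was not tested. Besides Hmgb2 these were Ube2c, the ubiquitin carrier of mitotic exit, with 34.4, 89.0 and 65.2 in control P10 and 174, 272 and 333 in control P6 (log2 -1.83 ± 0.44, edgeR adjusted p = 0.0103), Birc5 (-1.91), Cdk1 (-1.85), Cenpa (-1.72), Smc2 (-1.57) and Fam64a (-1.46). With members at 3% or more of cardiomyocyte markers left out, 15 of the list could be tested and 3 were called, all lower. Among all 776 genes tested in that setting, 63 were called lower. Of 4 S phase genes tested Pcna, the sliding clamp, fell (-2.49), and of 3 G1/S genes Ccnd1 fell (-1.40). The selecting genes Mki67 and Top2a had log2 differences of -0.54 and -0.56, and neither was called. Since every member had to hold UMIs of the cycling genes, these values are descriptions and do not show whether their levels changed.

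Endothelial genes were called in both directions, against 17.6% called among all genes tested. Fabp4 had 344, 1681 and 1279 TMM-normalised CPM in control P10 and 5529, 4272 and 4813 in control P6 members, without overlap, and fell (log2 -2.11 ± 0.55, edgeR adjusted p = 0.0153). In the fatty acid uptake list of capillaries 3 of 8 genes tested fell: Fabp4, its relative Fabp5 (-2.06) and Rgcc (-1.77). Cdh5, the VE-cadherin of endothelial junctions, had 68.7, 240 and 130 in control P10 and 753, 429 and 374 in control P6 and fell (log2 -1.66 ± 0.47, edgeR adjusted p = 0.0217). With members at 3% or more of cardiomyocyte markers left out, Fabp4 still fell (log2 -2.14, edgeR adjusted p = 0.00537), while Cdh5 stood at -1.30 (edgeR adjusted p = 0.0552). Of 13 VEGF, angiopoietin and Notch genes the insulin receptor Insr rose (1.73) and Apln (-1.97) and Pdgfb (-1.88) fell. Of 11 transcription factors Gata4 (1.93) and Tbx20 (2.52), which cardiomyocytes also express, rose and Ets2 fell (-1.59). Of 18 basement membrane genes Sparcl1 fell (-1.60). Of 3 inhibitor and quiescence genes tested Klf6 fell (-1.49).

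Of the selecting genes Egfl7 (-1.83), Gpihbp1 (-1.58) and Btnl9 (-1.46) fell and Chrm3 rose (2.63); since each could admit a nucleus, these are descriptions. Of 38 respiratory chain genes 7 fell at P10 and none rose, against 17.6% called and 8.54% lower among all genes tested: Atp5j (log2 -2.66), Cox8a (-1.92), Cox6a1 (-1.88), Cox7a2 (-1.69), Atp5h (-1.67), Atp5g1 (-1.66) and Ndufab1 (-1.59). With the nuclei rich in cardiomyocyte markers left out, 6 of 19 tested were called, all lower, against 63 lower of 776 among all genes tested there. Of 23 citric acid cycle and fatty acid oxidation genes 0 were called by edgeR and 0 by DESeq2, with 1 at an unadjusted p under 0.05 in edgeR. Of 6 ERR receptors and coactivators, Esrrg (2.62), Ppara and Ppargc1a (2.20), the coactivator of mitochondrial genes, rose, and with nuclei rich in cardiomyocyte markers left out 2 could be tested and 0 were called by edgeR. Hba-a1 fell (-1.64) among 4 hemoglobin genes, and Dcn rose (1.28) among 7 fibroblast genes.

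Whether a difference was unlike in cycling and non-cycling nuclei was tested in 1 further fit. In that fit of cycling and non-cycling sums from each library, with the library as a block, and with the 6 cycling genes of the selection left aside, 1 of 4687 genes (0.0213%) had a KO P10 to control P10 difference in members unlike that in non-cycling endothelial nuclei, and 1 of 4687 (0.0213%) an age difference unlike it. For the genotype this was Igfbp5, which encodes a binding protein of insulin-like growth factors. It had 88.3, 1685 and 223 TMM-normalised CPM in KO P10 members and 65.4, 181 and 80.9 in control P10 members. In non-cycling nuclei it had 485, 523 and 597 in KO P10 and 598, 1381 and 479 in control P10 (difference of log2 differences 2.80 ± 0.56 SE, edgeR adjusted p = 0.0149). KO P10 replicate 2, with 36 UMIs, supplied most of the KO signal, and the call was lost without it, without control P10 replicate 1 and without control P10 replicate 2. At an unadjusted p under 0.05 there were 198 genes for the genotype and 181 for age.

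For age the gene was Myl7, the atrial myosin light chain. It had 1, 0 and 0 UMIs in control P10 members and 0, 2 and 71 in control P6 members, against 7, 3 and 7 in control P10 and 2, 1 and 1 in control P6 non-cycling nuclei (difference -6.32 ± 1.28 SE, edgeR adjusted p = 0.0153). The 73 UMIs of control P6 members lay in 4 nuclei, nearly all from replicate 3, and the call was lost without that library, without control P10 replicate 1 and without control P10 replicate 3. For comparison, 129 genes rose and 93 fell between KO P10 and control P10 in the 4956 genes tested in non-cycling endothelial nuclei, and 403 rose and 413 fell between control P10 and control P6, in sums of more nuclei than the members give.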

How the data were processed

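Single-nucleus RNA was measured by Drop-seq of mouse ventricles in 9 libraries, 3 per group. The authors deposited 1 table of UMI counts per library (genes by cell barcodes). Reads had been aligned with STAR 2.5.2a to mm10, per the submitters' processing notes; how the barcodes were selected is not given in the sources used here. The counts are not normalised. The files held 33000 barcodes, of which 5897 had fewer than 500 UMIs outside mitochondrial genes and were left out, as were the 464 barcodes of KO P10 replicate 2 that also occur in KO P10 replicate 1. Members and gene lists were chosen with earlier results of these data known.

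Nuclei were summed per library and class, since nuclei are not replicates. Library sums of members were fitted together for all 9 libraries with edgeR 4.0.16 (R 4.3.3, limma 3.58.1) using TMM scaling, filterByExpr and the quasi-likelihood test. p-values were adjusted by Benjamini-Hochberg over all genes tested, with a threshold of 0.05. The interaction fit took cycling and non-cycling sums of each library with the library as a block. Shares were compared by exact permutation of libraries (3 against 3, smallest two-sided p 0.10) or exact sign flips over 9 libraries, with exact (Clopper-Pearson) 95% intervals. Levels of cycling against non-cycling nuclei are a description. Named without choice were the genes of the selection, the 25 other genes with the highest ratio among those with 50 UMIs or more that were higher in all 9 libraries, and in each comparison up to 12 genes per direction with the largest called change and no overlap, or, where fewer, those with the smallest p up to 6; list genes were named as examples, and the genes with the lowest ratios were named after their values were seen. Fibroblast nuclei had 3 or more fibroblast UMIs, and cardiomyocyte nuclei 5 or more cardiomyocyte UMIs, with fewer than 3 endothelial UMIs in both. Candidate doublets, scored with Scrublet in scanpy 1.11.5, were kept, and leaving out the top 5% was an alternative. Other alternatives were DESeq2 1.42.0, RLE scaling, no filter, only the groups compared, a replicate block, stricter gates, thinning to 500 UMIs and leaving out each library. The edgeR test was tried on simulated counts for KO P10 against control P10 members. It recovered 7 of 100 genes changed 2-fold and 60 of 100 changed 4-fold, and called 6 unchanged genes. Most 2-fold changes were thus missed. Promoters were read from RefSeq tables of GRCm38.p6. Some genes that these rules name are not reported here.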

Additional observations from a re-analysis of the deposited data

Results flagged for a closer look

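Igfbp5 had a KO P10 to control P10 difference in members that exceeded the one in non-cycling endothelial nuclei by 2.80 on the log2 scale, which drew attention because the difference between the 2 kinds of nuclei passed its own test (edgeR adjusted p = 0.0149). It was 1.03 without KO P10 replicate 2 (edgeR adjusted p = 0.970).

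Myl7 differed by -6.32 on the log2 scale in its age difference between members and non-cycling nuclei (edgeR adjusted p = 0.0153), and by -1.83 without control P6 replicate 3 (edgeR adjusted p = 1.0).

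Barcodes with little Malat1, which no comparison of nuclei used, carried cycling genes too. Over all libraries together, 15.6% of them (760 of 4869) held 2 or more cycling UMIs. The share ran from 1.29 to 25.2% over the libraries, and KO P10 replicate 1 gave 371 of the 760. Mki67 and Top2a made up 68.9% of cycling UMIs in members and 83.0% in these barcodes.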

How the results depend on the processing

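The members of the KO P10 libraries are few, and the calls between KO P10 and control P10 moved with the setting. Against 3 calls, there were 19 with no filter on low counts, 21 by DESeq2, 5 with shared barcodes kept and 5 with members under 3% of cardiomyocyte markers. There was 1 with only the groups compared, 1 with 3 or more cycling UMIs required and 1 without the top Scrublet scores. Where cardiomyocyte UMIs could not exceed endothelial UMIs 20 genes could be tested, with 0 called by edgeR and 0 at an unadjusted p under 0.05. Leaving out 1 library gave 1 to 23. Against 361 calls between control P10 and control P6, the same 3 gates gave 89 (3 or more cycling UMIs), 4 (cardiomyocyte UMIs not above endothelial) and 101 (under 3% cardiomyocyte markers), and leaving out 1 library gave 162 to 345. The tests of cycling against non-cycling nuclei, 1 call each, gave 2 for genotype and 0 for age with 5 or more endothelial UMIs. They gave 0 and 0 with cardiomyocyte UMIs not above endothelial, and 0 for age without the top Scrublet scores. Leaving out 1 library gave 0 to 1 for genotype and 0 to 2 for age. The cause of these changes was not tested beyond the smaller number of genes and nuclei that each setting leaves.

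The share of cycling nuclei in KO P10 minus control P10 ran from -4.11 to 0.713 points when 1 library was left out, and control P10 minus control P6 from -14.6 to -8.50. They were -5.09 and -12.8 points with cardiomyocyte UMIs not above endothelial. The S-leaning difference between KO P10 and control P10 was -0.366 points after thinning and -2.09 after thinning with members under 3% of cardiomyocyte markers. It was 0.0 with cardiomyocyte UMIs not above endothelial, and -0.727 to 8.54 with 1 library left out. Between control P10 and control P6 it was -4.40 to 2.20 with 1 library left out. There it was -11.7 points with cardiomyocyte UMIs not above endothelial, at 0.0% against 11.7% (exact permutation p = 0.10). Endothelial minus fibroblast shares ran from 3.55 to 5.33 points, endothelial minus cardiomyocyte from 6.05 to 7.78 and the endocardial-leaning difference from -16.7 to -11.6 with 1 library left out. With cardiomyocyte UMIs not above endothelial these were 2.36, 4.92 and -9.55. The 2 settings based on 3% of cardiomyocyte markers were chosen after seeing the data. Among values of single named genes 461 kept direction and side of the threshold, 27 passed it newly, 22 no longer passed and 0 reversed.

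Same-numbered libraries of different groups deviated together with correlations of -0.144 to 0.219, so the numbers are shared without a shown pairing. With a replicate block 25 genes were called between KO P10 and control P10 and 400 between control P10 and control P6. The paired share differences were the same, -2.22, -12.5, 4.95 and -1.41 points, with exact sign-flip p of 0.75, 0.25, 0.75 and 0.75, where 3 pairs allow no p under 0.25.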
